A study of Saccharomyces cerevisiae with 6 samples.

Results

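Budding yeast slows its cell cycle, repairs its DNA and protects its replication forks through a kinase cascade, and 10 genes of that cascade were measured in an mms21RINGD mutant and in wild type. The genes were taken by name from the deposited table and are MEC1, TEL1, DDC2 (listed as LCD1 in RefSeq), RAD24, RAD9, MRC1, TOF1, CSM3, RAD53 and CHK1, 10 of its 7126 features. The series, whose title concerns Mms21, a SUMO ligase, in ribosome biogenesis, has 3 wild type and 3 mms21RINGD libraries of ribosome-depleted total RNA from cells growing exponentially in rich medium with added amino acids. The wild type is labelled W303, a common laboratory strain, and the mutant's strain label gives only mms21RINGD, an allele of MMS21. No drug, damaging agent or time course is named for either group, and the labels do not say whether the replicates were separate cultures or the mutant a single clone. The p-values below therefore cover the spread among the 6 libraries, which may be technical.

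In this cascade, damaged or stalled DNA is first recognised by sensors. Mec1, bound to its partner Ddc2, is recruited to single-stranded DNA, and the related kinase Tel1 acts at broken ends. Adaptor proteins, Rad9 at damage and Mrc1 at stalled forks, pass the signal to the effector kinases Rad53 and Chk1. Rad53 acts on the kinase Dun1, which relieves repression of ribonucleotide reductase genes. Control of the checkpoint proteins themselves is known mainly at the level of phosphorylation, which RNA levels do not show.

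Reads were recovered from the RPKM values (reads per kilobase of gene, scaled to library size), with library totals of 19264738 to 24625301 reads. Members held 159 to 2157 reads per library, so that the 95% exact Poisson interval of a value reached 4.24% to 15.9% to each side, for counting error only. Wild type replicate 1 stood apart, with a median chi-square per feature against the other wild type libraries of 14.0 and 17.5 times that of counting noise, compared with 1.61 to 2.04 times for every other pair within a group. It is therefore given separately below, and results are given with and without it. MMS21 itself measured 3.23, 3.04 and 2.18 RPKM in wild type and 16.6, 12.9 and 13.5 RPKM in the mutant (5.09-fold, log2 fold change 2.01 ± 0.15 SE, limma adjusted p = 0.000152). Which bases of the gene the mutant allele lacks or changes is not given in the labels, so its RNA level checks only that the groups differ there.

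All 10 members were low to moderately expressed and were tested with all other features. Their means over the 6 libraries lay between the 11.2th percentile of 6731 tested features, for MRC1, and the 50.6th, for CHK1. In wild type, CHK1 was highest at 24.4 RPKM, followed by RAD9 at 16.6, TOF1 at 13.6, MEC1 at 9.98, CSM3 at 9.92, TEL1 at 8.67, RAD53 at 7.58, DDC2 at 6.81, RAD24 at 6.13 and MRC1 at 5.10 RPKM. Of the 9 neighbouring pairs in that order, only CHK1 against RAD9 and TOF1 against MEC1 were separate in all 3 wild type libraries, and the other 7 pairs overlapped. Without wild type replicate 1 only 2 pairs overlapped. In the mutant the order was the same except that CSM3, at 13.3 RPKM, stood above MEC1, at 11.3 RPKM, and 3 neighbouring pairs overlapped (TEL1 with RAD53, DDC2 with RAD24, and RAD24 with MRC1).

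Of the 10 members 1 was called higher, TEL1, and none was called lower, where 42.7% of all tested features were called higher and 10.9% lower (limma on log2(RPKM + 1), adjusted p under 0.05). All 10 fold changes were above 0, from 0.02 for CHK1 to 0.43 for CSM3 on the log2 scale, with a median of 0.21 beside 0.24 for all tested features. Without wild type replicate 1 the members' median was 0.32 and that of all features 0.29. In 4 members (MEC1, TEL1, RAD9 and MRC1) every mutant library lay above every wild type library, which 50.1% of all features did, and in none did every mutant library lie below, as in 14.3% of all features. Fold changes understate the change of low genes on this scale. In bulk RNA a change in the share of cells at one cell cycle stage and a change in RNA per cell cannot be told apart.

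**Figure D1:**
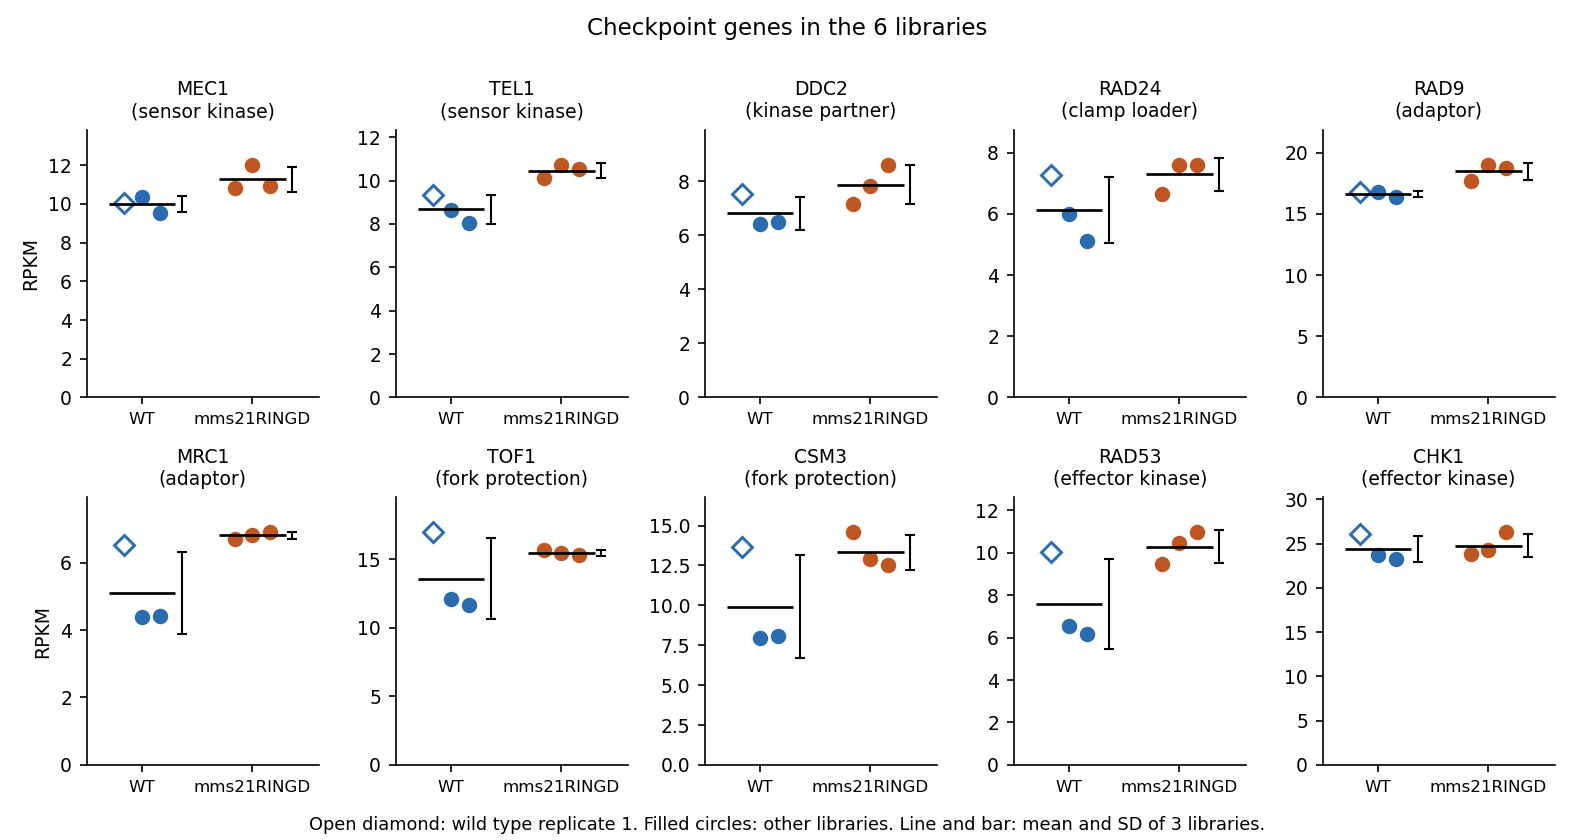
RPKM of the 10 checkpoint genes in each library, wild type in blue and mms21RINGD in orange, with the line at the mean and the bar the SD of 3 libraries. The open diamond is wild type replicate 1, which lies near the mutant level for MRC1, TOF1, CSM3 and RAD53, at 6.52, 16.97, 13.7 and 10.01 RPKM. It also lies within the mutant range for DDC2, RAD24 and CHK1, at 7.53, 7.28 and 26.1 RPKM.

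The calls turned on wild type replicate 1 and on how libraries were scaled. Without that library 8 of 10 members were called higher, all except MEC1 and CHK1, and none lower, beside 57.3% and 15.3% of all features. With median-of-ratios scaling, which moved the median fold change of all features from 0.24 to -0.001, no member was called higher, beside 25.4% of all features, and 1, CHK1, was called lower, beside 27.1%. With that scaling and without wild type replicate 1, 3 members (MRC1, CSM3 and RAD53) were called higher, beside 32.1% of all features, and 2 (RAD9 and CHK1) lower, beside 33.8%. With quantile normalization 6 members were called lower (MEC1, TEL1, DDC2, RAD24, RAD9 and CHK1), beside 34.6% of all features, and none higher, beside 20.4%. The direction of the members' changes thus depended on the scaling. As deposited, and set against the median of all features, the members lay between -0.22 for CHK1 and 0.19 for CSM3. With quantile normalization these distances moved too. The members' median was then -0.22 beside -0.098 for all features, against 0.21 beside 0.24 as deposited.

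**Figure D2:**
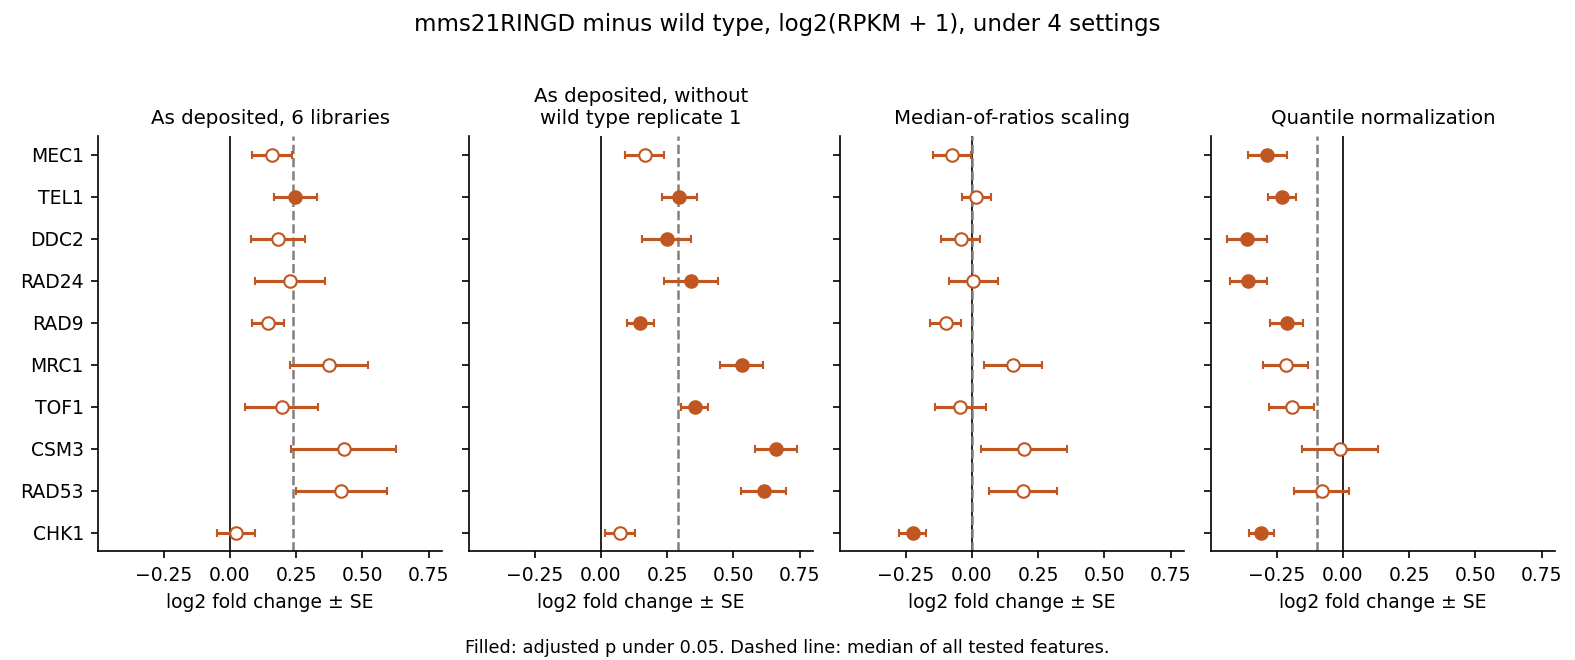
Log2 fold change (mms21RINGD minus wild type, bar = SE) of each member as deposited, without wild type replicate 1, and after median-of-ratios scaling or quantile normalization. Filled points passed an adjusted p of 0.05 and the dashed line is the median of all tested features: 1, 8, 0 and 0 members were called higher and 0, 0, 1 and 6 lower.

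Of the sensor kinases TEL1 was called higher by a small margin and MEC1 was not called. MEC1 (YBR136W, chromosome II, 505668 to 512774, plus strand, R64), the main damage and replication stress kinase, measured 10.1, 10.4 and 9.53 RPKM in wild type replicates 1, 2 and 3 and 10.8, 12.03 and 10.9 RPKM in the mutant. The groups did not overlap, but the difference was not called (1.13-fold, log2 fold change 0.16 ± 0.07 SE, limma adjusted p = 0.112). TEL1 (YBL088C, chromosome II, 51019 to 59382, minus strand), which also maintains telomere length, measured 9.34, 8.64 and 8.03 RPKM in wild type and 10.1, 10.7 and 10.6 RPKM in the mutant. Every mutant library lay above every wild type library, and TEL1 was called (1.21-fold, log2 fold change 0.25 ± 0.08 SE, limma adjusted p = 0.0381). Leaving out wild type replicate 1 kept the call, and leaving out any one of the other 5 libraries ended it (limma adjusted p = 0.0753 to 0.127). Median-of-ratios scaling also ended it, at a log2 fold change of 0.016, and quantile normalization turned it to -0.23. The exact two-sided permutation test gave 0.1 for MEC1 and for TEL1, the smallest p that 3 libraries against 3 allow.

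The partners of the sensors overlapped between groups. DDC2 (YDR499W, chromosome IV, 1447830 to 1450073, plus strand), which brings Mec1 to coated single-stranded DNA, measured 7.53, 6.42 and 6.48 RPKM in wild type and 7.17, 7.82 and 8.61 RPKM in the mutant (1.16-fold, limma adjusted p = 0.168). RAD24 (YER173W, chromosome V, 536300 to 538279, plus strand), which loads the checkpoint clamp of Rad17, Mec3 and Ddc1 onto DNA, measured 7.28, 5.996 and 5.12 RPKM in wild type and 6.66, 7.61 and 7.60 RPKM in the mutant (1.19-fold, limma adjusted p = 0.181). For each of them wild type replicate 1 lay above the lowest mutant library and the other wild type libraries below all mutant libraries. Without replicate 1 DDC2 passed narrowly (log2 fold change 0.25, limma adjusted p = 0.0499), as did RAD24 (0.34, limma adjusted p = 0.0243).

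Neither adaptor was called with all libraries. RAD9 (YDR217C, chromosome IV, 899551 to 903480, minus strand), the adaptor at DNA breaks, had the smallest SD relative to its mean of the 10 members in wild type, at 16.8, 16.8 and 16.4 RPKM, and measured 17.7, 19.0 and 18.7 RPKM in the mutant. The groups were separate by a small margin that was not called (1.11-fold, log2 fold change 0.14 ± 0.06 SE, limma adjusted p = 0.0832). MRC1 (YCL061C, chromosome III, 18816 to 22106, minus strand), which travels with the replication fork and carries its stress signal to Rad53, measured 6.52 RPKM in wild type replicate 1 and 4.38 and 4.42 in replicates 2 and 3, against 6.69, 6.83 and 6.90 RPKM in the mutant. Wild type replicate 1 thus lay just under the mutant and well above its own group. The difference was not called with all libraries (1.33-fold, log2 fold change 0.37 ± 0.15 SE, limma adjusted p = 0.0698) and was called without replicate 1 (1.55-fold, 0.53 ± 0.08 SE, limma adjusted p = 0.00136).

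TOF1 and CSM3 encode a pair of proteins that bind each other, hold the fork together with Mrc1 and help it to pause. TOF1 (YNL273W, chromosome XIV, 122883 to 126599, plus strand) measured 16.97, 12.1 and 11.7 RPKM in wild type and 15.7, 15.5 and 15.3 RPKM in the mutant, so that its highest value was in wild type replicate 1. CSM3 (YMR048W, chromosome XIII, 366981 to 367934, plus strand) measured 13.7, 7.98 and 8.11 RPKM in wild type and 14.6, 12.9 and 12.5 RPKM in the mutant, with wild type replicate 1 inside the mutant range. Neither was called with all libraries, TOF1 at 1.14-fold (limma adjusted p = 0.262) and CSM3 at 1.34-fold (limma adjusted p = 0.107). Both were called without replicate 1, TOF1 at 1.302-fold (log2 fold change 0.35 ± 0.05 SE, limma adjusted p = 0.00103) and CSM3 at 1.66-fold (0.66 ± 0.08 SE, limma adjusted p = 0.000457), where CSM3 had the largest fold change of the 10.

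Neither effector kinase was called with all libraries. RAD53 (YPL153C, chromosome XVI, 261727 to 264192, minus strand), the kinase that stabilises forks, delays late origins and turns on Dun1, measured 10.01, 6.56 and 6.16 RPKM in wild type and 9.45, 10.4 and 10.96 RPKM in the mutant. Wild type replicate 1 lay within the mutant range, and the difference was not called (1.36-fold, log2 fold change 0.42 ± 0.17 SE, limma adjusted p = 0.0771). Without that library it was (1.62-fold, 0.61 ± 0.08 SE, limma adjusted p = 0.000828). CHK1 (YBR274W, chromosome II, 749594 to 751177, plus strand), which guards the anaphase inhibitor Pds1, measured 26.1, 23.8 and 23.3 RPKM in wild type and 23.8, 24.2 and 26.3 RPKM in the mutant. Its groups overlapped (1.02-fold, log2 fold change 0.02 ± 0.07 SE, limma adjusted p = 0.809), and the sign turned without wild type replicate 3 (-0.0089) or mms21RINGD replicate 3 (-0.019). It was the one member called lower with median-of-ratios scaling (-0.22, limma adjusted p = 0.0112).

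Ratios between members within a library do not change when the library is multiplied by a scaling factor. The RAD53 to CHK1 ratio was 0.383, 0.276 and 0.265 in wild type and 0.397, 0.431 and 0.417 in the mutant, so every mutant library was higher. The TOF1 to CSM3 ratio was 1.24, 1.51 and 1.44 in wild type and 1.08, 1.197 and 1.22 in the mutant, every mutant library lower. The MRC1 to TOF1 ratio was 0.384, 0.362 and 0.378 in wild type and 0.426, 0.442 and 0.452 in the mutant, every mutant library higher, and here wild type replicate 1 lay with its own group. Each of these 3 pairs gave the smallest possible exact permutation p of 0.1, or 0.2 after Benjamini-Hochberg adjustment over the 6 pairs compared, so no ratio passed the threshold and none could have. Ratios of other gene pairs were not computed, so the share of pairs that separate in these libraries is not known. Of single features, 50.1% had every mutant library above every wild type library and 14.3% every mutant library below. The other 3 of the 6 pairs compared overlapped between groups. MEC1 to DDC2, a kinase and its obligate partner, averaged 1.47 ± 0.139 in wild type and 1.44 ± 0.147 in the mutant (SD, n = 3 each; exact permutation p = 0.7). TEL1 to MEC1 averaged 0.869 ± 0.0524 and 0.930 ± 0.0363 (SD, n = 3 each; exact permutation p = 0.2), and RAD9 to MRC1 averaged 3.37 ± 0.689 and 2.72 ± 0.0684 (SD, n = 3 each; exact permutation p = 0.4).

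**Figure D3:**
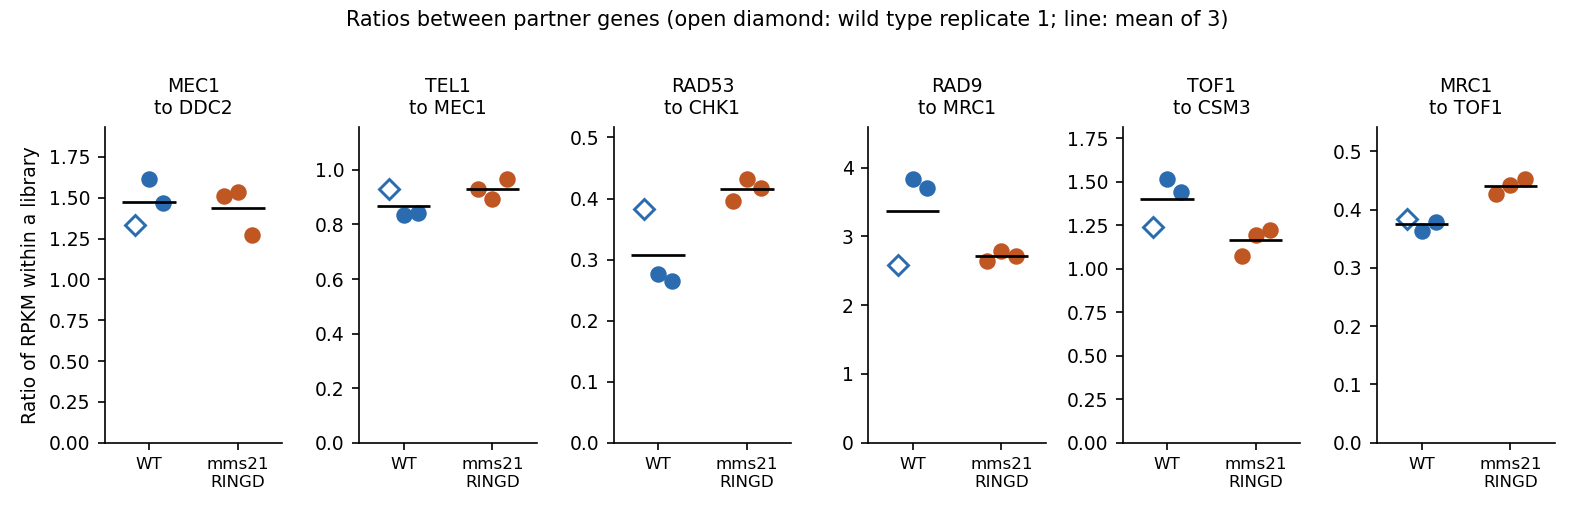
Ratio of RPKM of 2 members within each library for 6 pairs, wild type in blue (open diamond: replicate 1) and mms21RINGD in orange, with the line at the mean of 3. RAD53 to CHK1, TOF1 to CSM3 and MRC1 to TOF1 do not overlap between groups, and MEC1 to DDC2 averages 1.47 and 1.44.

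The members in which wild type replicate 1 stood highest above its group included all those with a MluI box near the gene start. This motif, with the letters ACGCGT, which read the same on either strand, is bound by the MBF factor that turns on genes for DNA replication as cells enter S phase. It was searched in a window from 250 bases before to 50 bases after the annotated start of every gene in the R64 genome, and 3.07% of 6001 windows held it. Of the 10 members 3 did: MRC1, starting 144 and 115 bases before the start, TOF1, at 155 and 136 bases, and CSM3, at 72 bases. The windows of these genes and of RAD53 are shown because in these 4 members wild type replicate 1 lay farthest above the other wild type libraries. They are chrIII:22057-22356 (minus strand), chrXIV:122633-122932 (plus), chrXIII:366731-367030 (plus) and chrXVI:264143-264442 (minus), each written 5′ to 3′ along the gene, with motif letters in capitals.
MRC1: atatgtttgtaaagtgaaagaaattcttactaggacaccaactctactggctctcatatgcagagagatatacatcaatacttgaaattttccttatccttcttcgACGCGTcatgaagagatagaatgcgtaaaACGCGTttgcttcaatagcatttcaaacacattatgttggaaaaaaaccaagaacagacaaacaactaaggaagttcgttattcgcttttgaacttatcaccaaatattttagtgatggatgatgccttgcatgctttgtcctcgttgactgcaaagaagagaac
TOF1: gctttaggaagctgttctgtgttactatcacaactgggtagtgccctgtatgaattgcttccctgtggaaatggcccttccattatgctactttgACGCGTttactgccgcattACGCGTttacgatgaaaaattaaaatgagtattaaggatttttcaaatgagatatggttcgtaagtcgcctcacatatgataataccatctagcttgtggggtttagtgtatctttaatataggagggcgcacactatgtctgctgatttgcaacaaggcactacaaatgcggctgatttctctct
CSM3: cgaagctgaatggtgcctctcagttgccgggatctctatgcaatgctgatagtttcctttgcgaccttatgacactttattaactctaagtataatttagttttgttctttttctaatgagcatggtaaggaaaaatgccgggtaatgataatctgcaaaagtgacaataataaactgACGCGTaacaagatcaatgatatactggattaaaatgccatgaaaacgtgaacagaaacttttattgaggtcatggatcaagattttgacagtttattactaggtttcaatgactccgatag
RAD53: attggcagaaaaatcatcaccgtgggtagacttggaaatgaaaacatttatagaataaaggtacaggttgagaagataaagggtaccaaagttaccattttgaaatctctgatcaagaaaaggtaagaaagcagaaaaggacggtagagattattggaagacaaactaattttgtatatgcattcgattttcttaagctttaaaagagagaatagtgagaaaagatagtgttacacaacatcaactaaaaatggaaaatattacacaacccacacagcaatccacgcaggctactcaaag

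No letters are in capitals for RAD53, whose window held none of the motifs searched. On the log2(RPKM + 1) scale wild type replicate 1 lay above the mean of replicates 2 and 3 by 0.48 for MRC1, 0.48 for TOF1, 0.70 for CSM3 and 0.58 for RAD53, and by 0.02 to 0.34 for the other 6 members. The Swi4 box CACGAAA, read on both strands, was in 4.20% of windows and in that of 1 member, DDC2, at 50 bases, and the stress element AGGGG, also on both strands, in 21.6% of windows and in none of the members. A match describes the letters and not a bound site.

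The same library was high in many genes of S phase entry, but it stood apart in other genes too. For some genes next to members it lay above the mean of replicates 2 and 3, by 1.11 for GOR1, 0.80 for ADR1 and 0.54 for PEP4. The difference was -0.51 for KRR1 and -0.43 for ERB1, on the same log2(RPKM + 1) scale. Wild type replicate 1 lay above both other wild type libraries in 9 of 10 members, all except MEC1, and in 64.7% of all tested features. Of 183 tested genes with a MluI box in the window, 84.2% had it highest, with a median excess of 0.30 beside 0.15 for all features. In a list of 26 genes of replication and S phase entry, chosen after the members' values were seen, 25 did. Their list had a median excess of 0.39, and the exception was TOF2, of the nucleolus. Because of that choice the list is a description only, and 4 of its genes are also in the downstream and target list below. In the S phase list 8 genes were called higher in the mutant and none lower with all libraries, beside 42.7% and 10.9% of all features. Without wild type replicate 1 the counts were 20 and 0, beside 57.3% and 15.3%. RFA1, of the single-strand binding protein that recruits Ddc2, measured 44.2, 29.2 and 28.6 RPKM in wild type and 49.2, 48.7 and 51.8 RPKM in the mutant, and POL1, of DNA polymerase alpha, measured 22.1, 17.4 and 16.01 and 22.6, 21.1 and 21.5 RPKM. The part that cell cycle stage had in the members' values was not tested.

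In a list of 35 genes that act upstream of the members or as their partners, DUN1 below Rad53 included, 9 rose and 1 fell. Of all tested features 42.7% were called higher and 10.9% lower. The list's median log2 fold change was 0.16 beside 0.24 for all features. Under median-of-ratios scaling the counts were 4 higher and 10 lower, beside 25.4% and 27.1% of all features. The list was chosen from known roles with earlier results of these data known. DUN1, the kinase directly below Rad53, rose from 17.4 ± 3.17 to 29.5 ± 0.265 RPKM (SD, n = 3 each; 1.69-fold, limma adjusted p = 0.00348). RAD50 and XRS2, of the complex that brings Tel1 to broken ends, rose 1.73-fold and 1.41-fold, while MRE11, its nuclease, measured 7.88 ± 0.722 and 9.25 ± 0.483 RPKM and was not called (limma adjusted p = 0.0894). BMH2 and BMH1, adaptors that bind phosphorylated proteins, rose 1.58-fold and 1.27-fold.

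Of the checkpoint clamp that Rad24 loads, DDC1 rose 1.49-fold and MEC3 1.24-fold, and RAD17 measured 13.9 ± 1.43 and 14.98 ± 1.097 RPKM (limma adjusted p = 0.37). The small subunits shared with Rad24's clamp loader, RFC2, RFC3, RFC4 and RFC5, were not called, with log2 fold changes of -0.07 to 0.18. SLX4, a scaffold that competes with Rad9, rose 1.33-fold. Of the phosphatase that reverses Rad53 phosphorylation, the catalytic gene PPH3 fell from 31.2 ± 1.74 to 24.4 ± 0.362 RPKM (SD, n = 3 each; limma adjusted p = 0.00563), the regulatory gene PSY4 rose 1.28-fold, and PSY2 was not called. The calls of DUN1, RAD50, BMH2 and PPH3 held under every setting in which they were tested. Those of XRS2, SLX4, DDC1, MEC3 and PSY4 were lost with quantile normalization, all of these but XRS2 with median-of-ratios scaling too, and that of BMH1 with median-of-ratios scaling and with no filter on low values. Those of BMH1 and PSY4 were also lost when any one library except wild type replicate 1 was left out, that of MEC3 in 4 and that of DDC1 in 3 such fits. Without wild type replicate 1, 17 of the 35 rose and 1 fell, beside 57.3% and 15.3% of all features.

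Of 26 genes in the downstream and target list 17 rose and none fell, where 42.7% of all tested features were called higher and 10.9% lower. The median log2 fold change was 0.50 beside 0.24 for all features. Median-of-ratios scaling gave 15 higher and 2 lower, beside 25.4% and 27.1% of all features. Quantile normalization gave 12 higher and 3 lower, beside 20.4% and 34.6%. This list too was chosen with earlier results of these data known, and the difference from the members was not tested. HUG1, an inhibitor of ribonucleotide reductase under checkpoint control, rose 11.8-fold, from 7.26, 3.93 and 6.67 RPKM in wild type to 66.95, 77.0 and 67.7 RPKM in the mutant. RNR3, the damage-induced large subunit of that enzyme, rose 8.23-fold, and RFX1, the repressor of both that Dun1 inactivates and that also represses itself, rose 2.52-fold. MAG1, a DNA glycosylase, rose 3.51-fold, RAD54, of recombination repair, 1.91-fold, and PHR1, a photolyase, 2.17-fold.

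Of the genes of the list that act on the cell cycle, NRM1 and PLM2, targets of the S phase entry program, rose 1.41-fold and 1.52-fold. SWI6 rose 1.31-fold and NDD1 1.27-fold. TOS4 was not called, and its groups overlapped (1.29-fold, log2 fold change 0.37, limma adjusted p = 0.0818). CLN1 (log2 fold change -0.02), PDS1 (0.03), MBP1 (0.15), SWI4 (0.47, limma adjusted p = 0.0508) and CLN2 (0.40, limma adjusted p = 0.0566) were not called. SML1 and RNR1, the inhibitor and the main large subunit of ribonucleotide reductase, were not called either, at 0.05 and -0.07. Of the 17 calls 12 held under every setting in which they were tested, and those of SWI6, NDD1, NRM1, PLM2 and DIN7 did not, each being lost with quantile normalization.

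**Figure D4:**
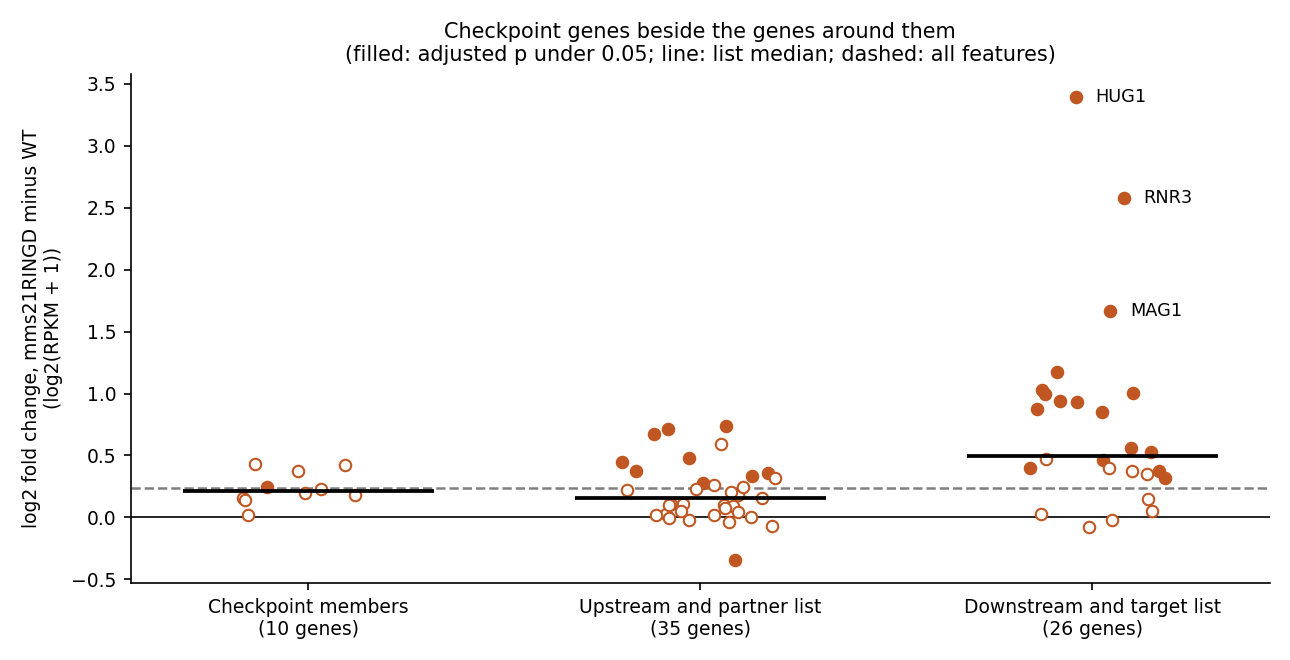
Log2 fold change (mms21RINGD minus wild type) of the 10 checkpoint members, 35 upstream and partner genes and 26 downstream and target genes, filled where the adjusted p was under 0.05, with the line at each list's median (0.21, 0.16 and 0.50) and the dashed line at that of all tested features (0.24). The downstream list reaches 3.395 for HUG1, while no member is above 0.43.

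None of the 20 nearest annotated genes overlapped a member. Of these 20 genes, 65 to 835 bases away, 9 rose, 5 fell and 6 were not called, where 42.7% of all features were called higher and 10.9% lower. ADR1, the carbon source regulator beyond the 3′ end of RAD9, rose 4.76-fold and GOR1, a glyoxylate reductase gene that diverges from TOF1, rose 6.44-fold. The ribosomal protein genes RPL23A, upstream of TEL1, and RPL37B, beyond the 3′ end of DDC2, fell by 0.55 and 0.56 on the log2 scale. Over the 6 libraries, the named features most like the mean of the standardized members were BOS1, IFM1, RMR1, USO1 and YAP1802, with Pearson correlations of 0.998 to 0.999, as a description over libraries that also share the group difference.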

How the data were processed

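The 6 libraries were grouped and numbered by their titles. The authors deposited RPKM values for 7126 features; per the submitters' processing notes the tools were TopHat2 2.0.8, edgeR 3.8.6 and CASAVA 1.8.2, and the build sacCer3. Which counter, annotation and strand setting made them is not given in the sources used here, and antisense reads cannot be separated. Names and positions came from RefSeq R64, the same assembly, where 6048 features matched on systematic name and another 31 on symbol. RPKM times gene length was a whole number of reads, within 0.02, for 99.8% of matched values above 0. The 6731 features whose mean reached 1 RPKM entered limma 3.58.1 (R 4.3.3) as log2(RPKM + 1), with a variance trend, two-sided, and Benjamini-Hochberg adjustment over all of them, a call being an adjusted p under 0.05. Ratios used exact permutation tests over 20 arrangements, and windows were read from the genome. Members, lists and tests were chosen with earlier results of these data known. The text names genes from all members, MMS21, both lists, nearest neighbours and the 5 features most like the members; 1 list gene is counted but not reported here. Genes of the S phase list outside those were picked with their values in view. Alternatives included other pseudocounts (0.1 and 5 RPKM), filters (none and 10 RPKM), scalings, variance settings, voom on recovered reads, a replicate block and leaving out each library. A floor of 3 reads in 1 kb was 0.122 to 0.156 RPKM.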

Additional observations from a re-analysis of the deposited data

How the results depend on the processing

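Across 19 alternatives, members called higher numbered 0 to 8 and lower 0 to 6. Higher calls were 1 as reported, 0 with a filter at 10 RPKM (where MEC1, RAD9, TOF1, CSM3 and CHK1 were tested), 0 after median-of-ratios scaling, 0 after quantile normalization with or without wild type replicate 1, 0 with the replicate block, 3 with totals without structural and mitochondrial RNAs, 2 with voom on recovered reads, 3 with median-of-ratios scaling without wild type replicate 1, and 0 to 8 when 1 library was left out. Lower calls were 1 with median-of-ratios scaling, 2 with that scaling without wild type replicate 1, and 6 with quantile normalization with or without that library. The 2 scalings without wild type replicate 1 were added after the data were seen.

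Signs turned mainly with scaling. With median-of-ratios scaling, and with it without wild type replicate 1, MEC1 stood at -0.074 and -0.12, DDC2 at -0.042 and -0.029, RAD9 at -0.099 and -0.15 and CHK1 at -0.22 and -0.23, and TOF1 at -0.044 in the first only. With quantile normalization, and with it without that library, MEC1 stood at -0.28 and -0.34, TEL1 at -0.23 and -0.25, DDC2 at -0.36 in both, RAD24 at -0.36 and -0.32, RAD9 at -0.21 and -0.27, MRC1 at -0.22 and -0.14, TOF1 at -0.19 and -0.10 and CHK1 at -0.31 and -0.32, with CSM3 at -0.011 and RAD53 at -0.081 in the first only. CHK1 also turned in leave-one-out fits (lowest -0.019, highest 0.071). Median-of-ratios scaling, with and without wild type replicate 1, put the members' median at -0.018 and 0.036, and quantile normalization at -0.22 and -0.26. In the same order, the upstream list's median was -0.077 and -0.10, and -0.21 and -0.18. That of all features was -0.001 and -0.0024, and -0.098 and -0.094. The cause was not tested.

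Higher upstream genes numbered 4 under a 10 RPKM filter, under median-of-ratios scaling and under quantile normalization, 5 with the last without wild type replicate 1, and 5 to 17 when 1 library was left out. Lower ones numbered 10 and 13 under median-of-ratios scaling and 18 and 20 under quantile normalization, with and without that library. Lower downstream genes numbered 2 and 3, and 3 and 4, in the same order. Higher features in all were 1713 under median-of-ratios scaling, 1375 and 1816 under quantile normalization and 1848 to 3865 with 1 library left out. Lower ones were 1821 and 2278, 2327 and 2659, and 433 to 1029. The MEC1 to DDC2 ratio difference was -0.10 to 0.054 with 1 library left out, and overlapping wild type neighbours in level were 2 to 7.

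Same-numbered libraries did not deviate together (correlations -0.14, 0.046 and -0.096), while wild type replicate 3 and mms21RINGD replicate 1 reached 0.21. Wild type replicate 1 stands apart and weighs on the deviations of its group, so these values cannot settle whether the numbers pair the samples. With the replicate block 2250 features were higher and 549 lower, and 0 members higher, with the calls of TEL1, BMH1, MEC3, PSY4, SWI6 and NDD1 lost.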
